A study of Mus musculus with 24 samples.

Results

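Lrrc10b, Rbm24, Fam189a1, Fmn2, Rsph1, Eps8l1, C130046K22Rik and BC002163 were described across common lymphoid progenitors (CLPs) and B cell progenitors of 4 PLCγ genotypes. They are 8 of the 24421 genes with a row in the deposited count tables, taken by symbol. Of the 8, 6 were selected on their log2 fold change, as steep falls of a knockout genotype among called genes with all 3 libraries lower. Fmn2 and Rsph1 were selected as cell cycle genes that the study had also followed by qRT-PCR. All 8 passed the filter on low counts in both populations, where 15209 genes (CLPs) and 15001 genes (B cell progenitors) were tested.

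IL-7 and its receptor drive the survival and expansion of the first cells of the B lineage. PLCγ1 and PLCγ2 are closely related enzymes that split a membrane lipid into diacylglycerol, which activates protein kinase C, and inositol trisphosphate, which releases calcium. PLCγ2 is known as the form on which mature B cells rely, and PLCγ1 as the form on which T cells rely. None of the 8 genes is a textbook part of this pathway. Fmn2 and Eps8l1 encode regulators of the actin cytoskeleton, Rsph1 encodes a subunit of the radial spoke of motile cilia, and Rbm24 encodes an RNA-binding protein known from splicing and mRNA stability in heart and muscle. Lrrc10b encodes a leucine-rich repeat protein, Fam189a1 a membrane protein, C130046K22Rik is annotated as a transcript without a protein, and BC002163 is a processed pseudogene of the respiratory chain gene Ndufs5.

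Bone marrow of 12 mice was sorted into Lin-IL-7R+ cells, taken as CLPs, and into IgM-IL-7R+ cells with B220, taken as B cell progenitors. Each mouse gave 1 library of each population, 24 in all. The groups of 3 mice carried cells labelled PLCgamma1+/+PLCgamma2+/+ (called wild type below), PLCgamma1-/-PLCgamma2+/+ (Plcg1-deficient), PLCgamma1+/+PLCgamma2-/- (Plcg2-deficient) or PLCgamma1-/-PLCgamma2-/- (double-deficient). By the study's methods the mice were irradiated CD45.1+ recipients of CD45.2+ donor marrow, and the animals were young adults of both sexes on a mixed background. A floxed Plcg1 allele had been deleted in the donors by Cre under the interferon-inducible Mx promoter after poly(I:C), which all donors received, whereas Plcg2 was deleted in the germline. Neither the number of donors per genotype nor a shared donor is stated, so n counts recipients, and a p-value measures the spread between them.

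The CLP libraries held 4232345 to 33219995 reads on genes. Those of B cell progenitors held 1479582 to 25057223, and 59.9% to 87.3% of their reads fell on no gene. A count of 3 reads equalled 0.0903 to 0.709 CPM, reads scaled to a common library size, in CLPs and 0.120 to 2.03 CPM in B cell progenitors, which covers counting error only. Plcg2 was 234 ± 17.1 CPM in wild type B cell progenitors, 90.4 ± 9.33 with Plcg2 lost and 91.8 ± 19.4 with both genes lost (mean ± SD, n = 3 mice, as in all values below). Plcg1 had a mean of 80.1 to 127 CPM over the B cell progenitor groups and did not separate its genotypes, and per-gene counts do not show whether its reads lie inside the deleted part. In each population, all 6 libraries labelled PLCgamma1-/- had more Xist (at least 1309 CPM in CLPs) and less of the summed Y-linked transcripts than the other 6 (at most 741 CPM of Xist), so that loss of Plcg1 and these sex-linked levels cannot be told apart. None of 14 B lineage stage markers, Pax5 and Ebf1 among them, was at 0 in any group of either population, CLPs included, and their sum ranged from 3073 to 8396 CPM in CLPs and from 3322 to 11088 CPM in B cell progenitors. Myeloid markers summed to 1427 to 8601 CPM over the 24 libraries, and 8 of 8 had log2 fold changes above 0 in each knockout genotype of each population, none of them called. T and NK markers were above 0 for 6 of 6 in B cell progenitors without Plcg1 (median log2 fold change 1.55), without Plcg2 (0.58) and without both (0.87), and below 0 for 5 of 6 in double-deficient CLPs. In double-deficient B cell progenitors, 4 of 4 plasmacytoid dendritic (median 0.93), 3 of 3 tested erythroid (0.89) and 3 of 4 early lymphoid markers (0.95) were above 0. Double-deficient CLPs had 4 of 4 plasmacytoid dendritic (−0.48) and 3 of 4 early lymphoid markers (−0.15) below 0. Their 3 tested erythroid markers were above 0 (1.07). edgeR called none of these in double-deficient cells of either population. The part of other cells in the values below was not tested. In sorted bulk RNA, fewer cells that express a gene and less RNA per cell cannot be told apart.

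Log2 fold changes and tests come from edgeR's quasi-likelihood fit over all genes of a population, with Benjamini-Hochberg adjustment over all genes tested. To be called, a gene had to reach an adjusted p of 0.05 or less together with a log2 fold change of 0.5 or more in size. Values from the comparison in which a gene was picked, or from comparisons that share its libraries, are given without a p. The picking comparison was taken from the size of each fall, and earlier results of both populations were known when the genes were taken. Below, libraries not used in the choice are only those outside that comparison. Tests in them are not independent of how the genes were taken. Lrrc10b, Rbm24 and Fam189a1 were picked in double-deficient against wild type B cell progenitors, where they held the first 3 places among the called falls whose 3 libraries all lay below wild type, with log2 fold changes of −5.29, −5.21 and −5.06. At such low counts the size depends on the prior count, and with a prior count of 2 Lrrc10b was at −4.46 and Fam189a1 at −3.48. In that comparison 0.673% of all genes were called lower and 10.8% had all 3 libraries lower. The next places in that list were held by the Y-linked genes Ddx3y (−4.57), Kdm5d (−4.52) and Eif2s3y (−4.24) and by Kcnk13 (−4.19). Fmn2 (−2.56) and Rsph1 (−1.15) were picked for the qRT-PCR, whatever their rank here. The study ran it on genes it had listed as reduced in these same cells, so their falls there were also tied to the choice. Eps8l1 held the first place of 2 in Plcg2-deficient B cell progenitors (−3.23), followed by Plcg2 itself (−1.37). C130046K22Rik held place 3 of 8 in double-deficient CLPs (−3.95), ahead of Blk (−2.63), and BC002163 was the only gene called lower in Plcg1-deficient CLPs (−2.85). By log2 fold change alone, over all genes tested, the ranks were 10 for Lrrc10b, 13 for Rbm24, 22 for Fam189a1, 267 for Fmn2 and 1106 for Rsph1. In their own comparisons they were 1 for Eps8l1, 16 for C130046K22Rik and 8 for BC002163.

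Lrrc10b, Rbm24 and Fam189a1 were close to undetected in double-deficient B cell progenitors. Lrrc10b (chromosome 19, 10455371 to 10457473, minus strand, GRCm38) had 8.19, 10.1 and 11.99 CPM in the 3 wild type B cell progenitor libraries and 0.331, 0.213 and 0.267 CPM in the double-deficient ones, 336 reads against 8. The single-deficient libraries lay between, at 2.25, 7.28 and 5.38 CPM without Plcg1 and at 0.402, 6.24 and 2.04 CPM without Plcg2. No single-deficient library reached the lowest wild type library, and both single-deficient groups overlapped each other. The lowest Plcg2-deficient library (0.402 CPM) and the highest double-deficient one (0.331 CPM) held 1 read each and could not be ranked at this depth. Double-deficient CLP libraries were again low, at 0.333, 0.172 and 0.454 CPM, but wild type spread from 0.362 over 4.92 to 8.46 CPM and overlapped them through 1 library.

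Rbm24 (chromosome 13, 46418434 to 46431095, plus strand) had 24.9, 22.5 and 18.3 CPM in wild type B cell progenitors and 0, 0.255 and 1.47 CPM in double-deficient ones. The 0 in the shallowest of these 3 libraries allows up to 1.05 CPM. Its order of means ran from wild type (21.9) over Plcg1-deficient (11.5) and Plcg2-deficient (5.01) to double-deficient (0.574). Neighbours overlapped in this order except at its end, where every double-deficient library lay below every other one. In CLPs the double-deficient libraries had 0.571, 0 and 0.619 CPM, where the 0 allows up to 0.246 CPM, and all lay below the 9 libraries of the other genotypes, which ranged from 1.96 to 17.9 CPM. The 3 Plcg2-deficient CLP libraries were alike at 2.80 to 2.96 CPM, whereas wild type CLPs had 1.96, 17.9 and 8.50 CPM.

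Fam189a1 (chromosome 7, 64756091 to 65156570, minus strand) was the lowest of the 3 by counts, with 98 reads over the wild type B cell progenitors and 3 over the double-deficient ones. This made 2.30, 2.80 and 3.67 CPM against 0, 0.128 and 0 CPM, a ratio of counts of 0.0294 with an exact 95% interval of 0.00595 to 0.0884 from counting error alone. The zeros allow up to 1.05 and 0.401 CPM. Single-deficient B cell progenitors overlapped wild type, with 1.28, 4.29 and 1.22 CPM without Plcg1 and 0.402, 2.10 and 4.08 CPM without Plcg2. In CLPs, wild type (0.217, 4.84 and 2.67 CPM) and double-deficient libraries (0.951, 0.172 and 0.124 CPM) overlapped. Nsmce3 and Gm25249 are annotated over Fam189a1 on the same strand, and no count row bears either symbol.

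Fmn2 (chromosome 1, 174501825 to 174822729, plus strand), a formin that builds actin filaments and is known from spindle positioning in the oocyte, had 21.8, 20.2 and 14.6 CPM in wild type B cell progenitors and 1.65, 3.40 and 3.9997 CPM in double-deficient ones. It was still counted in every double-deficient library, with 115 reads in all. Single-deficient libraries spread from 6.42 to 21.3 CPM without Plcg1 and from 5.23 to 15.7 CPM without Plcg2, above all double-deficient and partly within the wild type values. CLPs had 2.17, 24.2 and 10.4 CPM in wild type and 2.33, 0.862 and 2.85 CPM in double-deficient libraries, which overlapped.

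Rsph1 (chromosome 17, 31255019 to 31277383, minus strand) differed less. Wild type B cell progenitors had 52.0, 45.7 and 30.2 CPM and double-deficient ones 19.2, 16.2 and 22.3 CPM. Both single-deficient groups reached as low, with 15.4 to 30.2 CPM without Plcg1 and 11.7 to 50.3 CPM without Plcg2, so only wild type stood apart from the double-deficient group. In CLPs the 4 groups overlapped, from 6.35 to 42.1 CPM. An annotated gene on the opposite strand overlaps Rsph1, and the library kit keeps no strand.

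**Figure D1:**
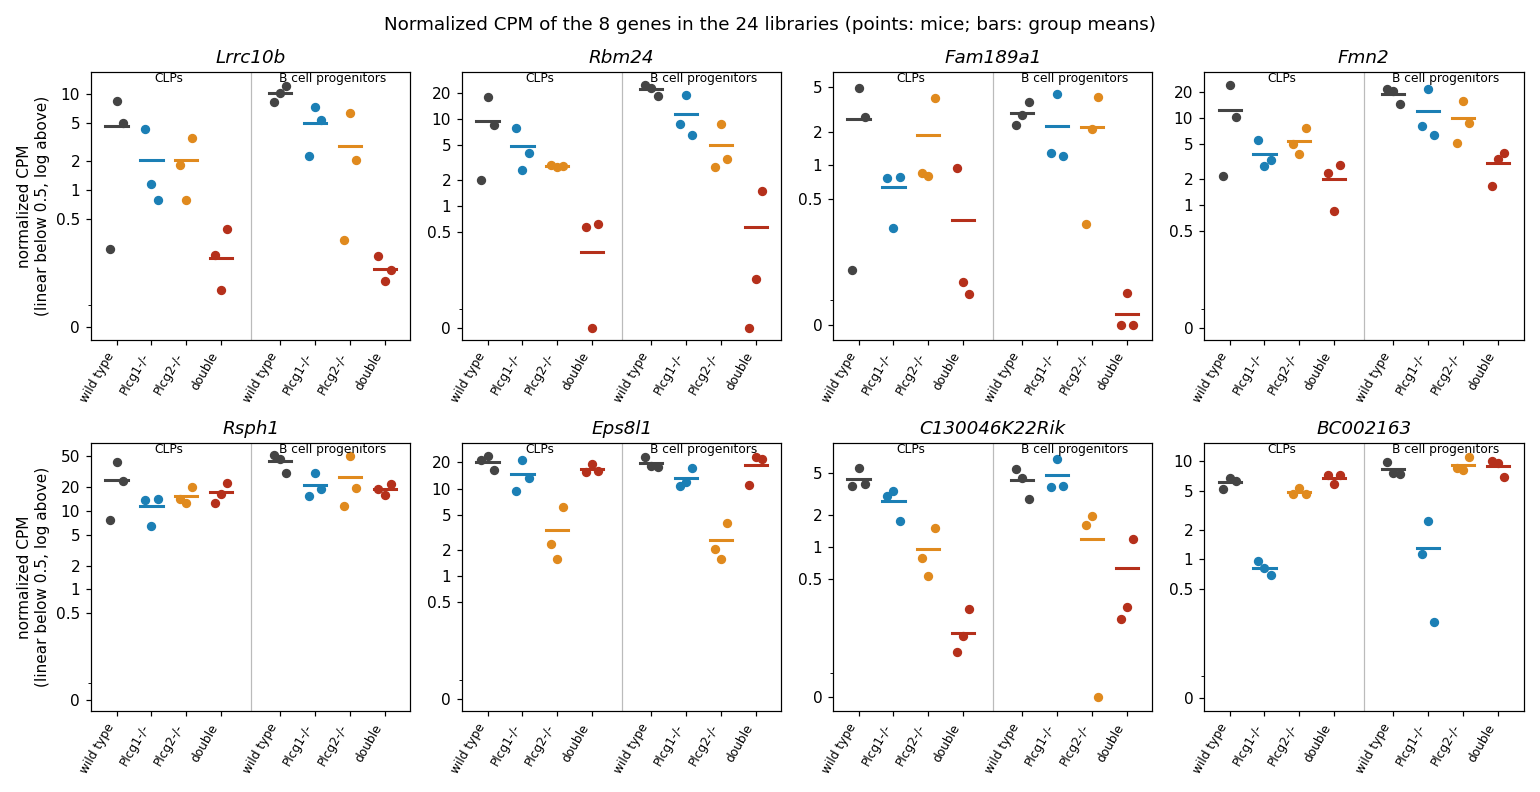
Normalized CPM (vertical axis, linear below 0.5 and logarithmic above) of the 8 genes in each of the 24 libraries, by genotype, with CLPs on the left and B cell progenitors on the right of each panel; points are mice and bars are group means of 3. Lrrc10b, Rbm24 and Fam189a1 are near 0 in double-deficient B cell progenitors, Eps8l1 is lowest in the Plcg2-deficient columns (1.56 to 6.15 CPM) and BC002163 in the Plcg1-deficient columns (0.347 to 2.47 CPM).

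Lrrc10b, Rbm24, Fam189a1 and Fmn2 moved together over the 24 libraries, with pairwise Pearson correlations of log2 CPM from 0.79 to 0.90, a description over libraries that share populations, genotypes and mice. These include the libraries in which 3 of the 4 were picked for a steep fall. Fmn2 was taken from a qRT-PCR of genes reported as reduced in the same cells. Part of this likeness was thus fixed by the choice. Their upstream regions are shown to let a reader compare the 4 sequences, as the 250 bases before the RefSeq start in GRCm38.p6, 5′ to 3′ on the gene's strand. Capitals mark E-boxes (CANNTG, which reads the same on both strands), the motif of the basic helix-loop-helix factors that act in early B cells. The positions are chr19:10457448-10457697 for Lrrc10b, chr13:46418050-46418299 for Rbm24, chr7:65156529-65156778 for Fam189a1 and chr1:174501575-174501824 for Fmn2.
Lrrc10b: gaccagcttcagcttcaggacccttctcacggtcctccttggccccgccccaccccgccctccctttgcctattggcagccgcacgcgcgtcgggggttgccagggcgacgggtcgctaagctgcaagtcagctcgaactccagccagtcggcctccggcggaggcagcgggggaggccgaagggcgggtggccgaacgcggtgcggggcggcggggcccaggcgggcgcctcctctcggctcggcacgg
Rbm24: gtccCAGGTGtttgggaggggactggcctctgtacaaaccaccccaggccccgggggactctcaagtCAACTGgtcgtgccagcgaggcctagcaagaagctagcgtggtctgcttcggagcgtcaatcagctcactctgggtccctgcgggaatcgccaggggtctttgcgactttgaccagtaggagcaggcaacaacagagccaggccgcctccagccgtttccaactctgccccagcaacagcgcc
Fam189a1: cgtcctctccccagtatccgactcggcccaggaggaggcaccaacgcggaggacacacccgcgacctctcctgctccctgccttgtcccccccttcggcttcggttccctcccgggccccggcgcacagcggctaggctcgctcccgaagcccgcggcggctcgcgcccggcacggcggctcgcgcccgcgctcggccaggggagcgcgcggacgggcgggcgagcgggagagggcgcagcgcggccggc
Fmn2: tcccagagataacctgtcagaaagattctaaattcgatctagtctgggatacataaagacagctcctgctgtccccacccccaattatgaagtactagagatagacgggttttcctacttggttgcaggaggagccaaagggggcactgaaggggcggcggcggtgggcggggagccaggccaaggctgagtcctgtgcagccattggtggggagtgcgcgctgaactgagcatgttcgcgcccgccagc
Rbm24 held 2 E-boxes and the other 3 genes none in this window, whereas 66.2% of 32851 mouse promoters of this length held one. The core of NFAT sites, GGAAA searched on both strands, was present in Rbm24 and Fmn2 and absent from Lrrc10b and Fam189a1, with a share of 55.6% over all promoters. No window of the 4 held the Ikaros core TGGGAA on either strand, which 21.6% of all promoters held. GC content was 74.0% for Lrrc10b, 78.4% for Fam189a1, 62.4% for Rbm24 and 57.2% for Fmn2, beside a median of 52.4% over all promoters. These letters say nothing about which factors bind. Of the 8 genes, 6 had a promoter in the table.

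Whether the genes picked in B cell progenitors were also lower in the same mice's CLPs was tested in libraries outside the picking comparison. Earlier CLP results were known when the genes were taken. In double-deficient against wild type CLPs, 6 of 6 had log2 fold changes below 0 with a median of −2.52, beside −0.03 over all genes tested, and 0 were called by edgeR, where 0.0526% of all genes were called lower. Before adjustment, p was 0.05 or less for 4 of the 6, as for 3.84% of all genes in this direction. Rbm24 had the largest difference (log2 fold change −4.40, 95% interval −6.40 to −2.39, adjusted p = 0.150 in edgeR). It was the only one of the 6 whose double-deficient libraries all lay below wild type, as 7.75% of all genes did. Lrrc10b had −3.70 (−6.02 to −1.39, adjusted p = 0.374), Fmn2 −2.54 (−4.14 to −0.94, adjusted p = 0.374) and Fam189a1 −2.50 (−4.87 to −0.13, adjusted p = 0.637) in the same edgeR fit. Rsph1 (−0.48, −1.59 to 0.64) and Eps8l1 (−0.27, −1.19 to 0.65) had intervals that span 0. DESeq2 on the same libraries called 3 of the 6 lower, Rbm24 (adjusted p = 1.33e-05), Lrrc10b (adjusted p = 0.0137) and Fmn2 (adjusted p = 0.0208). Single wild type libraries moved these values. Without the first, edgeR called Rbm24 (−4.90, adjusted p = 0.0355). Without the second, none was called, and the log2 fold changes were −3.57 for Rbm24, −2.97 for Lrrc10b, −1.77 for Fam189a1 and −1.60 for Fmn2. Over all libraries left out in turn, edgeR's adjusted p reached 0.488, 0.812, 0.954 and 0.870 for these genes.

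The 3 wild type CLP libraries differed in B lineage markers. Their summed stage markers were 3149, 7916 and 6255 CPM in the order in which Lrrc10b had 0.362, 8.46 and 4.92 CPM. In both single-deficient groups of B cell progenitors, the library with the highest marker sum (6908 and 8077 CPM) also had the most Lrrc10b, Rbm24 and Fmn2 of its group. In Plcg1-deficient CLPs, Lrrc10b was highest (4.29 CPM) at the lowest marker sum (3526 CPM). The second double-deficient B cell progenitor library had the highest marker sum of all 24, 11088 CPM, with 0.213 CPM of Lrrc10b, 0.255 CPM of Rbm24 and 3.40 CPM of Fmn2. Without Plcg1, 14 of 14 markers had log2 fold changes below 0 against wild type in CLPs (median −0.56) and in B cell progenitors (−0.50). Without Plcg2, 13 of 14 did in CLPs (−0.44) and 12 of 14 in B cell progenitors (−0.26). In these 2 genotypes edgeR called none of the markers. Of the 14 markers, 6 had log2 fold changes below 0 in double-deficient against wild type B cell progenitors (median 0.09), with Dntt at 1.35, Vpreb1 at 1.22 and Igll1 at 1.03. Il2ra (−3.40, adjusted p = 0.00818), Cd2 (−1.95, adjusted p = 0.0386) and Cd24a (−1.70, adjusted p = 0.0250), surface proteins that change along B cell development, were called lower there by edgeR, as were 0.673% of all genes. Their part in the values of the 8 genes was not tested.

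**Figure D2:**
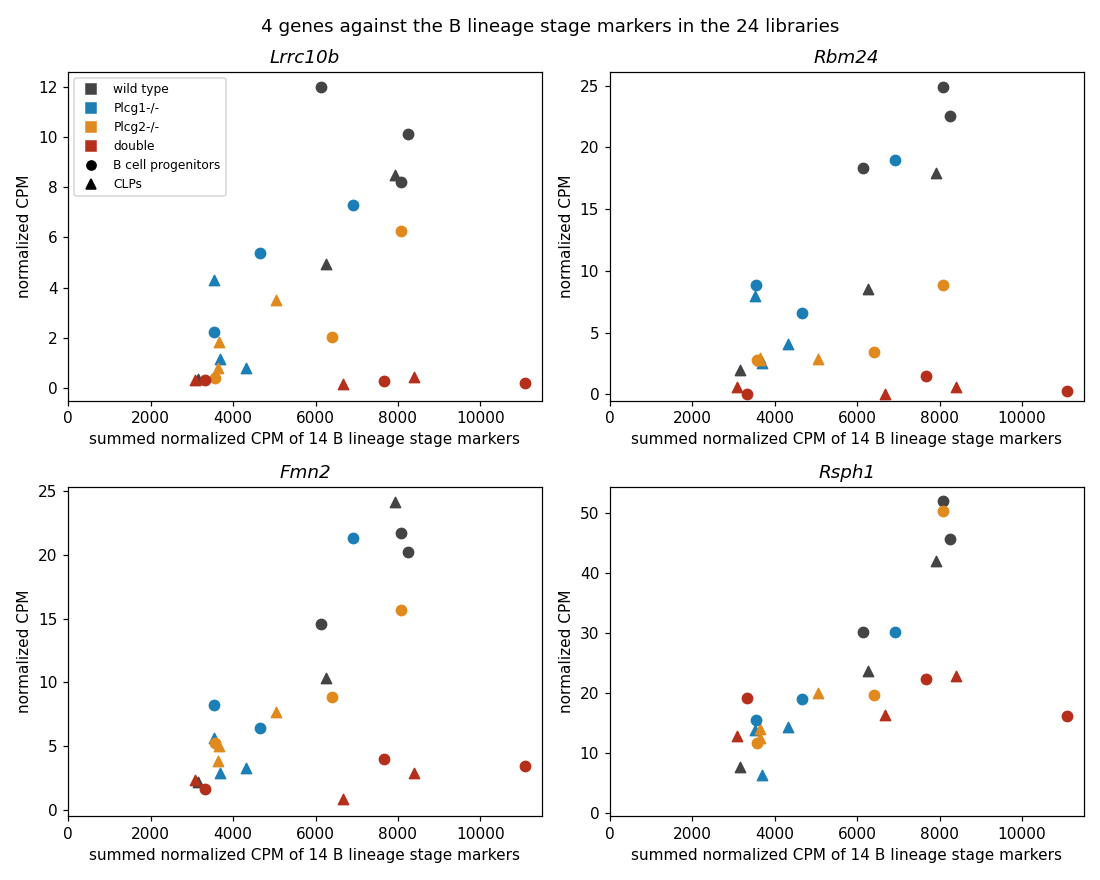
Normalized CPM of 4 genes (vertical axes) against the summed normalized CPM of 14 B lineage stage markers (horizontal axes) in the 24 libraries, coloured by genotype, with circles for B cell progenitors and triangles for CLPs. The double-deficient library with the highest marker sum, 11088 CPM, has 0.213 CPM of Lrrc10b and 0.255 CPM of Rbm24, while wild type libraries range from 0.362 to 11.99 CPM of Lrrc10b.

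For Lrrc10b, Rbm24, Fam189a1 and Fmn2, the log2 fold changes against wild type were smaller in size in both single-deficient genotypes than in double-deficient cells, in both populations. In B cell progenitors the double-deficient values are those of the picking comparison, so this order was partly fixed by the choice there. In CLPs, 6 of 6 had log2 fold changes below 0 both without Plcg1 (median −1.07) and without Plcg2 (median −1.17), beside −0.01 and 0.01 over all genes tested. Of these, 0 were called in either, beside 0.00658% and 0% of all genes called lower. Before adjustment, p was 0.05 or less for 1 gene in each, Fmn2 without Plcg1 (−1.61) and Eps8l1 without Plcg2, as for 1.32% and 2.39% of all genes in this direction. Both comparisons used the same wild type CLP libraries, so their signs are not separate results. With the second wild type library left out, Lrrc10b, Rbm24, Fam189a1, Fmn2 and Rsph1 lay closer to 0. They ranged from −1.19 (Fam189a1) to −0.11 (Rbm24) without Plcg1. Without Plcg2 the range was −0.87 (Rbm24) to 0.22 (Fam189a1). In B cell progenitors, the log2 fold changes of Lrrc10b were −1.02 without Plcg1 and −1.56 without Plcg2, and those of Rbm24 −0.92 and −1.93. Those of Fam189a1 were −0.36 and −0.49, and those of Fmn2 −0.64 and −0.84. All these values share wild type libraries with the comparison that picked the genes.

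Both single-deficient genotypes were set against each other with no library of the choice. In B cell progenitors, Plcg2-deficient against Plcg1-deficient, the log2 fold change was −1.01 for Rbm24 (95% interval −2.30 to 0.28), −0.54 for Lrrc10b (−1.90 to 0.82), −0.19 for Fmn2 (−1.24 to 0.85), −0.13 for Fam189a1 (−1.92 to 1.66) and 0.43 for Rsph1 (−0.52 to 1.37). None was called by edgeR, beside 0.0333% of genes called lower and 0.04% called higher. The libraries overlapped for all 5, where 2.79% of genes had all 3 lower and 2.26% all 3 higher, and the intervals leave room for differences of more than 1 log2 unit either way for Fam189a1. A difference between the single-deficient genotypes was not detectable for these 5 genes at this depth.

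Double-deficient and Plcg1-deficient libraries were both on the Xist-high side. Between them, in B cell progenitors, the log2 fold changes were −4.27 for Lrrc10b, −4.29 for Rbm24, −4.70 for Fam189a1, −1.91 for Fmn2 and −0.17 for Rsph1, values that share the double-deficient libraries of the choice. The first 4 had all 3 libraries lower, as for 11% of genes, and 0.153% of genes were called lower. In CLPs, where no library was used in the choice, they were −3.47 for Rbm24 (−5.41 to −1.53, adjusted p = 0.464 in edgeR) and −2.63 for Lrrc10b (−4.88 to −0.38, adjusted p = 1.00 in edgeR), with all 3 double-deficient libraries below all 3 Plcg1-deficient ones for both genes, as for 4.89% of all genes, and 0.00658% called lower. DESeq2 called Rbm24 in this comparison (adjusted p = 0.00353). Fam189a1 (−0.58), Fmn2 (−0.93) and Rsph1 (0.59) had overlapping libraries there.

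Eps8l1 (chromosome 7, 4460674 to 4480487, plus strand) was lowest where Plcg2 alone was missing. Its product belongs to the Eps8 family, which couples growth factor receptors to actin. Plcg2-deficient B cell progenitors had 2.01, 1.56 and 4.08 CPM, against 23.2, 18.3 and 17.6 CPM in wild type. The double-deficient libraries, which lack Plcg2 as well, had 10.9, 22.9 and 21.6 CPM, and the Plcg1-deficient ones 10.6, 11.8 and 17.02 CPM, so that both overlapped each other and all exceeded the Plcg2-deficient libraries. All 3 Plcg1-deficient libraries also lay below wild type (log2 fold change −0.58, sharing its libraries with the choice), as for 9.99% of genes.

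The CLPs of the same mice, not used in the choice, had the same order. Eps8l1 was 2.34, 1.56 and 6.15 CPM without Plcg2, below each of 21.01, 23.7 and 16.5 CPM in wild type, 9.42, 21.5 and 13.4 CPM without Plcg1 and 15.6, 19.04 and 15.9 CPM without both. Plcg2-deficient against wild type gave a log2 fold change of −2.74 (95% interval −3.76 to −1.71, adjusted p = 0.368 in edgeR), and all 3 libraries were lower, as for 4.58% of genes. Double-deficient against Plcg2-deficient CLPs gave 2.47 (1.45 to 3.48, adjusted p = 0.158 in edgeR), with all 3 libraries higher, as for 6.86% of genes, and Plcg2-deficient against Plcg1-deficient gave −2.28 (−3.29 to −1.27, adjusted p = 0.877 in edgeR). None of the 3 was called by edgeR, which called 0% of genes lower in the first, 0.0329% higher in the second and 0% lower in the last. DESeq2 called all 3, with adjusted p = 1.06e-05, 4.81e-05 and 0.00148. Double-deficient against Plcg1-deficient B cell progenitors gave 0.52 (−0.17 to 1.21, adjusted p = 0.467 in edgeR). The nearest genes, Rdh13 and Ppp1r12c, were not called against wild type in any knockout genotype. An antisense gene overlaps Eps8l1 and cannot be told apart without strand.

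C130046K22Rik (chromosome 11, 103697724 to 103722832, plus strand) was low in both genotypes without Plcg2 and had its lowest means without both enzymes. CLPs had 3.77, 5.56 and 3.93 CPM in wild type, 3.04, 3.42 and 1.78 CPM without Plcg1, 0.798, 0.533 and 1.54 CPM without Plcg2 and 0.190, 0.259 and 0.372 CPM without both. Each group in this order lay wholly below the one before. This order was partly fixed by the choice, since its first and last groups are those of the picking comparison. There, 7.75% of genes had all 3 libraries lower, and Plcg2-deficient against Plcg1-deficient CLPs 2.01%. The 2 lowest groups rest on few reads, 14, 12 and 7 without Plcg2 and 4, 3 and 9 without both. In B cell progenitors, not used in the choice, the values were 5.49, 4.52 and 2.85 CPM in wild type, 3.69, 6.89 and 3.82 CPM without Plcg1, 1.61, 1.99 and 0 CPM without Plcg2 and 0.331, 0.383 and 1.20 CPM without both. The 0 comes from the shallowest library, where it allows up to 2.03 CPM. Libraries with Plcg2 stood above those without it, while wild type and Plcg1-deficient libraries overlapped, as did both Plcg2-null groups.

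Against wild type B cell progenitors the log2 fold change was −2.70 with both genes lost (−4.27 to −1.13, adjusted p = 0.137), −1.57 without Plcg2 (−3.08 to −0.06, adjusted p = 0.919) and 0.17 without Plcg1 (−1.21 to 1.55, adjusted p = 0.899), each from edgeR and none called, beside 0.673%, 0.0133% and 0.0267% of genes called lower. All 3 libraries lay below wild type in the first of these, as for 10.8% of genes, and in the second, as for 3.97%. DESeq2 called the first (adjusted p = 0.00423). Double-deficient against Plcg1-deficient gave −2.87 (−4.46 to −1.29, adjusted p = 0.161 in edgeR and 0.00428 in DESeq2). Plcg2-deficient against Plcg1-deficient gave −1.65 in CLPs (−2.69 to −0.62) and −1.74 in B cell progenitors (−3.26 to −0.22), with all libraries lower in both, as for 2.01% and 2.79% of genes, and neither called by edgeR. Gosr2 overlaps C130046K22Rik on the opposite strand and, with log2 fold changes between −0.07 and 0.16 in the 6 comparisons with wild type, was not called in any.

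BC002163 (chromosome 16, 42955631 to 42955949, plus strand) was low where Plcg1 alone was missing and overlapped wild type where both genes were missing. CLPs had 5.14, 6.77 and 6.25 CPM in wild type, 0.954, 0.818 and 0.693 CPM without Plcg1, 4.62, 5.38 and 4.61 CPM without Plcg2 and 7.14, 5.86 and 7.22 CPM without both. B cell progenitors, not used in the choice, had 9.89, 7.64 and 7.42 CPM, then 1.12, 2.47 and 0.347 CPM, then 8.45, 8.18 and 10.9 CPM and last 9.92, 9.66 and 6.93 CPM in the same order. The Plcg1-deficient libraries lay below all 9 others in each population, and the other 3 genotypes overlapped in B cell progenitors.

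Plcg1-deficient against wild type B cell progenitors gave a log2 fold change of −2.60 (−3.61 to −1.59, adjusted p = 0.142 in edgeR), with all 3 libraries lower, as for 9.99% of genes. Double-deficient against Plcg1-deficient gave 2.68 (1.66 to 3.71, adjusted p = 0.0465 in edgeR), where 0.06% of genes were called higher and 5.67% had all 3 libraries higher. It was the only call among the 8 genes in libraries outside their picking comparison, though earlier results of both populations were known. This call was lost with RLE size factors (adjusted p = 0.0536) and when any 1 of 5 of the 6 libraries was left out, with adjusted p up to 0.235, while the log2 fold change stayed between 2.28 and 3.54. Plcg2-deficient against Plcg1-deficient gave 2.72 (1.67 to 3.76, adjusted p = 0.127 in edgeR). Without the second Plcg1-deficient library, edgeR called the comparison with wild type (−3.46, adjusted p = 0.0209) and that with Plcg2-deficient cells (3.57, adjusted p = 0.0204). Without any other library neither was called, with log2 fold changes down to −2.19 and 2.30 in size and adjusted p up to 0.472 and 0.559 in edgeR. DESeq2 called all 3 comparisons with every library (adjusted p = 1.48e-05, 5.39e-06 and 1.04e-05). Double-deficient and wild type B cell progenitors had a log2 fold change of 0.08 (−0.81 to 0.97). Double-deficient against Plcg2-deficient CLPs gave 0.47 (−0.07 to 1.00, adjusted p = 0.699 in edgeR).

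The transcript of BC002163 is nearly that of its parent gene, so its counts may hold reads of either copy. The 319 bases aligned with Ndufs5 without a gap and matched at 317, with 2 substitutions from Ndufs5 to BC002163, T81C and A105G, counted from 1 at the start of BC002163. Positions 71 to 115 hold both, shown in capitals.
Ndufs5: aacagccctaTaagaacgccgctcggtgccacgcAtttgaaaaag
BC002163: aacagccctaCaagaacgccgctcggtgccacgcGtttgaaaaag
A read that lies within the 319 bases and covers neither of these 2 cannot be placed on one copy by its sequence. Ndufs5, an abundant subunit gene of complex I in every respiring cell, had 17 reads over all 24 libraries and at most 11 in one. How reads that match both copies were counted is not given in the sources used here, and values on either row are uncertain. BC002163 also lies inside Zbtb20 on the same strand. Zbtb20 had log2 fold changes of 0.09 and −0.04 in Plcg1-deficient CLPs and B cell progenitors and was not called in any of the 6 comparisons with wild type.

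**Figure D3:**
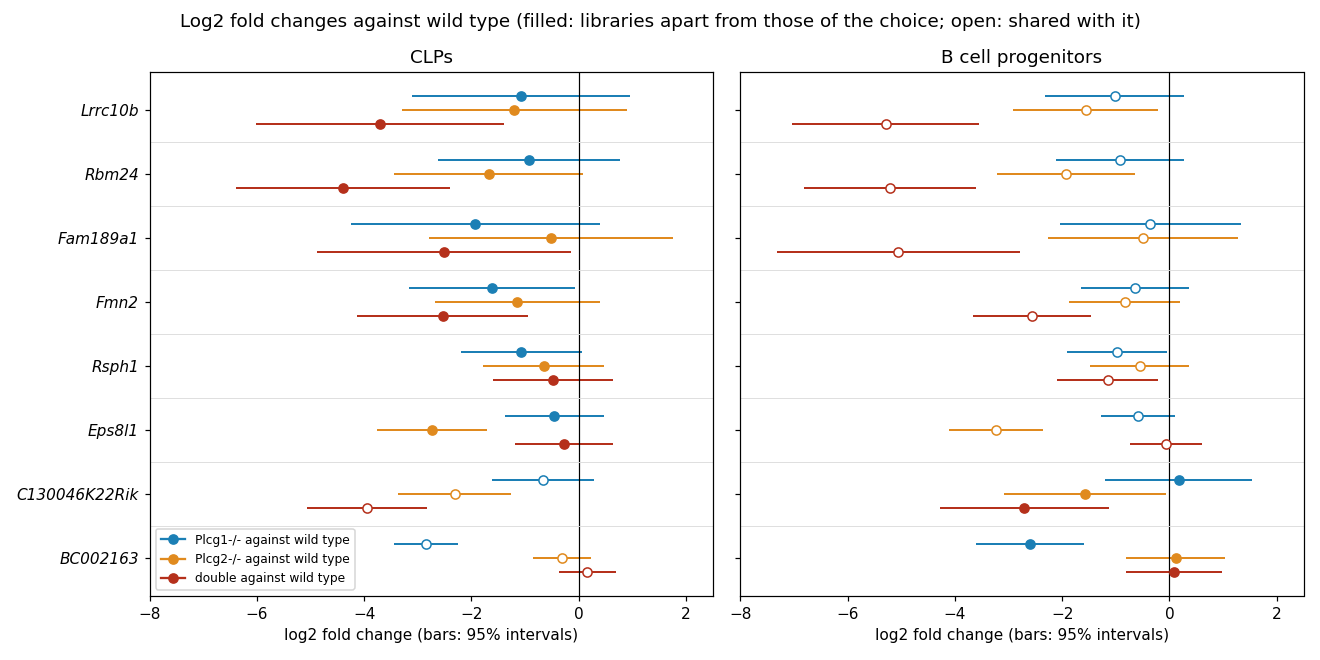
Log2 fold changes against wild type (horizontal axes) with 95% intervals (bars) for the 8 genes in CLPs (left) and B cell progenitors (right), by knockout genotype. Filled points come from libraries apart from those in which a gene was picked and open points share libraries with that choice. Eps8l1 stands at −2.74 in Plcg2-deficient CLPs and −0.27 in double-deficient ones, and BC002163 at −2.60 in Plcg1-deficient B cell progenitors and 0.08 in double-deficient ones.

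Levels were also set side by side between the populations of one genotype. In wild type, B cell progenitors had higher means than CLPs for 6 of the 8, led by Rbm24 with a log2 fold change of 1.24 and Lrrc10b with 1.18. These values share wild type libraries with the choice of each gene. Rbm24 and Lrrc10b were picked for a fall from the wild type B cell progenitor level. The tests used only genotypes apart from each gene's choice. Fmn2 was 1.58 higher in B cell progenitors without Plcg1 (0.27 to 2.89, adjusted p = 0.132 in edgeR) with no overlap, and BC002163 0.86 higher without Plcg2 (0.12 to 1.60, adjusted p = 0.225 in edgeR) with no overlap. Of 7 genes tested without Plcg1, 4 had no overlap, as Fam189a1 (1.78), Rsph1 (0.88) and C130046K22Rik (0.76) had none either. No gene of the 8 was called in a tested genotype, beside 3.04% (without Plcg1), 2.75% (without Plcg2) and 2.95% (without both) of all genes called higher. All 3 libraries were higher for 14.8% and 11.1% of genes in the single-deficient genotypes. Eps8l1 had log2 fold changes of −0.21 without Plcg1 (−1.03 to 0.60) and 0.14 without both (−0.67 to 0.94). The difference of a genotype contrast between both populations, tested for each gene in libraries outside its choice, lay between −1.55 for Fam189a1 and 0.35 for Eps8l1 and was called for none (adjusted p = 1.00 for each in edgeR).

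In double-deficient cells, no tested relative of the 8 genes was called by edgeR. Against wild type, 0 of 13 tested formins and Fmn2 partners were called in either population, with median log2 fold changes of 0.19 in CLPs and 0.07 in B cell progenitors, beside −0.03 and −0.02 over all genes, of which 0.0921% and 0.893% were called. At such shares, 0 calls do not set the relatives apart from other genes. Spire1, which nucleates actin with formins, had 0.77 and Fmnl3 −0.67 in CLPs, and Fmn1 had −0.84 and Fmnl2 0.75 in B cell progenitors. The radial spoke and motile cilium list had 0 of 14 called in CLPs (median −0.30) and 0 of 12 in B cell progenitors (median −0.20). Its extremes in CLPs were Rsph9 (−1.86), a spoke head partner of Rsph1, and Hydin (−1.48), and in B cell progenitors Rsph9 (−1.71) and Hydin (−1.21). DESeq2 called Rsph3a higher in both populations (1.11 and 1.03) and Rsph9 lower in B cell progenitors (−1.76). Of 5 Eps8 relatives and complex partners 0 were called in either population, and Eps8 itself, with −0.36 and −0.75, and Eps8l2, with −0.52 and 0.16, were not called. Rbm38, the closest relative of Rbm24, had −0.27 and −0.43, Rbm20 had −0.37 and −1.02, and 0 of 4 Rbm24 relatives were called. Fam189b had 0.52 and 0.97, not called by edgeR and called by DESeq2 in B cell progenitors (adjusted p = 0.00554). Lrrc10, the relative of Lrrc10b, was below the filter. Between wild type populations, Ccdc39 (3.00) and Abi1 (0.60), an Eps8 partner, were called higher in B cell progenitors, as were 3.14% of all genes.

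**Figure D4:**
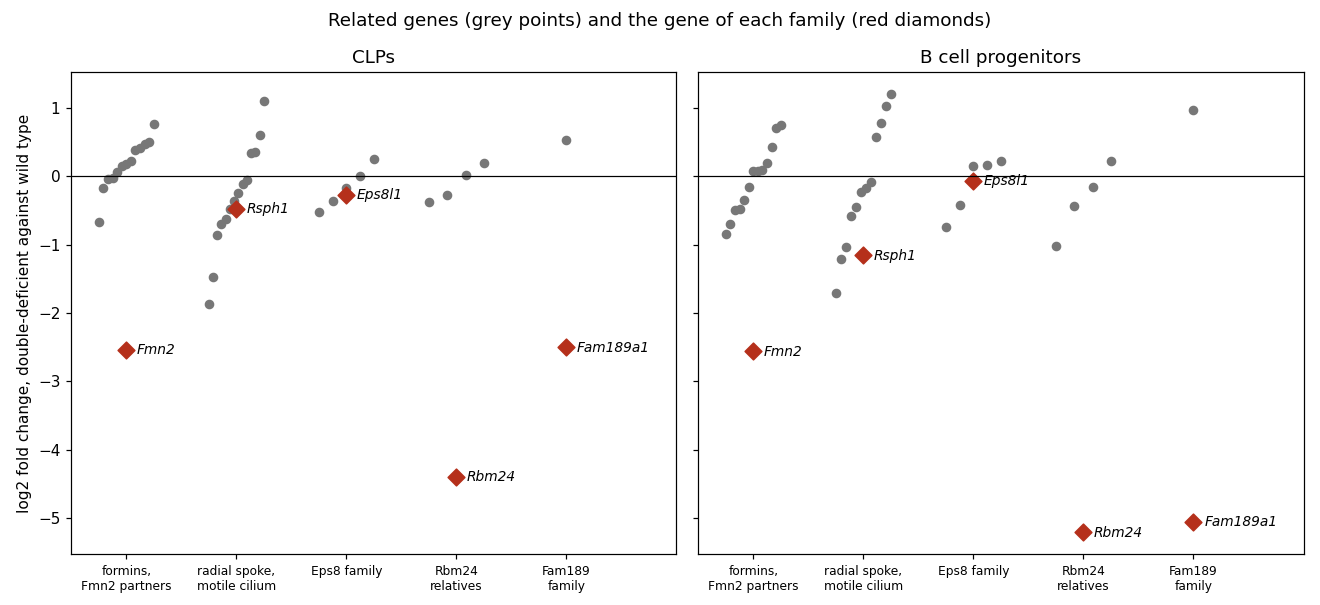
Log2 fold changes of double-deficient against wild type cells (vertical axis) in CLPs (left) and B cell progenitors (right) for the tested relatives in 5 lists (grey points, one per gene) and for the gene of each family among the 8 (red diamonds). Rbm24 and Fam189a1 were picked for their B cell progenitor values, so their place on the right was fixed by the choice. Fmn2 and Rsph1 come from a qRT-PCR of genes reported as reduced in the same cells, so their place there was partly fixed too. In CLPs, Fmn2 (−2.54), Rbm24 (−4.40) and Fam189a1 (−2.50) lie below each of their tested relatives, while Rsph1 and Eps8l1 lie within the range of theirs.

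Genes next to the 8 were not called either. Of 18 neighbours or overlapping genes with a count row 12 were tested in each population, and 0 were called in the 6 comparisons with wild type. Of all genes, 0.0921% were called in double-deficient CLPs and 0.893% in double-deficient B cell progenitors, and fewer in the single-deficient comparisons. At such shares 0 of 12 does not set the neighbours apart from other genes. In double-deficient cells their median log2 fold change was −0.03 in CLPs and 0.09 in B cell progenitors. Syt7, 2190 bases from Lrrc10b, had −0.24 and 0.15, Cap2, 70752 bases from Rbm24, had −0.86 and 0.14, and Tjp1, next to Fam189a1, had 0.96 and 0.89. The lowest values were those of Gm15713, 454568 bases from BC002163, with −2.18 in CLPs and −1.91 in B cell progenitors (adjusted p = 0.685 and 0.591 in edgeR). Gm19522, on its other side, had −0.84 and 1.05.

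The genes most like each of the 8 were found by Pearson's r of log2 CPM over the 24 libraries, as a description that includes the libraries of the choice. Lrrc10b and Rbm24 shared Glcci1 (0.92 and 0.91) and Itga9 (0.92 and 0.93) among their nearest 3, and Blk, a kinase of the pre-B cell receptor, followed for Rbm24 (0.91). Fmn2 was most like Bach2, a transcription factor of B cells (0.96), Cd72, a B cell surface receptor (0.95), and Dennd5b (0.95). Fam189a1 was most like Irs1 (0.88), Myl4 (0.87) and Lrrc10b (0.86), and Rsph1 like Sdhaf2 (0.94), Csrp2 (0.92) and Hyls1 (0.91). C130046K22Rik was most like Blk (0.85) and Plcg2 (0.84), with Amigo1 next (0.84). Eps8l1 and BC002163 had more distant neighbours, Nmrk1 at 0.77 and Ccdc23 at 0.82 in the first place. The correlations of Eps8l1 and BC002163 with Lrrc10b, Rbm24, Fam189a1 and Fmn2 were at most 0.0805.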

How the data were processed

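CLPs and B cell progenitors of 4 genotypes were analysed from 24 libraries, grouped by the sample labels. The authors purified poly(A) RNA, prepared libraries with a NEBNext Ultra kit, and per the labels aligned the reads to mm10 with STAR 2.5.0a. The deposited values are raw counts of reads per gene, without normalization. The counting program is not given in the sources used here, and 2 rows per table that name no gene (no feature, ambiguous) were left out of library sizes and tests.

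The 8 genes, the lists and the tests were chosen with earlier results of these data known, of both populations, and so were the motifs. Counts were fitted per population with edgeR 4.0.16 in R 4.3.3 (TMM, filterByExpr, glmQLFit, glmQLFTest, default prior count), with all 4 genotypes and no covariate, and over all 24 libraries to compare populations. Adjusted p-values are Benjamini-Hochberg values over all genes tested. The standard error is the log2 fold change over the square root of F. Normalized CPM are counts over TMM-scaled library sizes. Calls needed an adjusted p of 0.05 or less and a log2 fold change of 0.5 or more in size. Each gene was tested only in libraries apart from those of the comparison that picked it, taken from the size of its fall. These come from the same mice where only the population differs. Comparisons of a single-deficient group with another knockout group beyond those first planned, and of double-deficient with Plcg1-deficient CLPs, were added after the data were seen.

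Named genes were the 8, Plcg1 and Plcg2, relatives and neighbours that were called or, in a list without calls, the 2 of largest change, and the 3 genes most like each of the 8 by Pearson's r. Relatives, neighbours and markers named beyond this rule were chosen after their values were seen. Both libraries of a mouse share its number in the labels, and their deviations from group means correlated between −0.35 and 0.53 (mean 0.11, above 0.1 in 7 of 12 mice). Between replicates, chi-square over its degrees of freedom was 8.28 to 133, so none was a copy. The fits were tested on simulated data. Alternatives were RLE size factors, no filter, a prior count of 2, DESeq2 1.42.0, a replicate block and each library left out. Promoters are from RefSeq (GRCm38.p6), positions from GENCODE M21 (GRCm38), and BC002163 and Ndufs5 were aligned from GENCODE transcripts. Python 3.11.15 with matplotlib 3.10.9 drew the figures.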

Additional observations from a re-analysis of the deposited data

How the results depend on the processing

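The limits of these results come from 3 mice per group and, in B cell progenitors, from libraries as shallow as 1479582 reads. DESeq2 called more genes than edgeR: 15, 11 and 171 against wild type in CLPs without Plcg1, without Plcg2 and without both (edgeR 1, 0 and 14) and 29, 17 and 438 in B cell progenitors (edgeR 9, 7 and 134). Between knockout genotypes it called 9 in CLPs for Plcg2-deficient against Plcg1-deficient (edgeR 1), 90 for double-deficient against Plcg1-deficient (4) and 104 against Plcg2-deficient (8), 802 in B cell progenitors for double-deficient against Plcg1-deficient (32), and 1484 between populations without Plcg1 (650). Among the 8 genes, DESeq2 called 3 in double-deficient CLPs, 2 in double-deficient against Plcg1-deficient B cell progenitors and 1 in each of 7 other comparisons. It called 1 relative in CLPs and 3 in B cell progenitors. The cause was not tested.

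Replicate numbers were not taken to pair mice of different genotypes, since not every same-numbered pair correlated above 0.1. Same-numbered libraries nevertheless correlated more, at 0.13 on average and above 0.1 in 20 of 36 pairs, than libraries of other numbers, at −0.067 and in 19 of 72. Myeloid marker sums were 6831 to 8601 CPM in the knockout libraries of replicate 1, 1431 to 3326 CPM in those of replicate 2 and 4332 to 6207 CPM in those of replicate 3. Wild type CLPs and B cell progenitors had 2580 and 1427 CPM in replicate 1, 2281 and 2112 CPM in replicate 2 and 3874 and 4451 CPM in replicate 3. With the replicate block, double-deficient against wild type had 50 calls in CLPs and 550 in B cell progenitors, double-deficient against Plcg1-deficient 17 and 100, double-deficient against Plcg2-deficient CLPs 26 and Plcg2-deficient against Plcg1-deficient CLPs 0, and 2 relatives were called, Rsph9 and Fam189b in B cell progenitors. The block changed no call of the 8 genes. Without the filter on low counts the 3 comparisons among knockout CLPs had 0, 7 and 13 calls, and the populations without Plcg2 differed in 344 genes (552 with it). With RLE size factors, double-deficient against Plcg1-deficient B cell progenitors had 17 calls and 0 of the 8 genes. A prior count of 2, and the mouse as a block between populations, changed no call of the 8 genes.

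Leaving out 1 library at a time gave 0 to 2, 0 to 1 and 0 to 44 calls against wild type in CLPs (without Plcg1, Plcg2 and both), 6 to 8, 0 to 5 and 50 to 119 in B cell progenitors, 0 to 0, 1 to 18 and 1 to 18 among knockout CLPs, 6 to 8 and 0 to 58 among knockout B cell progenitors, and 375 to 500, 316 to 1181, 282 to 419 and 352 to 462 between populations in wild type, Plcg1-deficient, Plcg2-deficient and double-deficient cells. Of the 8 genes and of the relatives, 0 to 1 were called in each. Rsph9 was called in CLPs without the first wild type library (−2.38, adjusted p = 0.0412 in edgeR). Several values changed sign when 1 library was left out, none of them called. Against wild type, Fam189a1 (−0.52 with all libraries) ranged from −1.55 to 0.22 in Plcg2-deficient and Rsph1 from −0.93 to 0.16 in double-deficient CLPs, C130046K22Rik from −0.19 to 0.37 in Plcg1-deficient and BC002163 from −0.0073 to 0.24 in Plcg2-deficient B cell progenitors. Between knockout CLPs, Lrrc10b ranged from −0.67 to 0.95, Eps8l1 from −0.055 to 0.58 and Rsph1 from −0.067 to 0.37. Between single-deficient B cell progenitors, Fam189a1 ranged from −0.70 to 0.72, Fmn2 from −0.82 to 0.53 and Rsph1 from −0.49 to 0.80. Between populations, Eps8l1 ranged from −0.58 to 0.071 without Plcg1 and from −0.057 to 0.37 without both, and without Plcg2, where all libraries gave 0.79, 0.92, 0.23 and 0.87, Lrrc10b from −0.91 to 1.18, Rbm24 from −0.0032 to 1.03, Fam189a1 from −0.42 to 1.13 and Rsph1 from −0.098 to 1.06. Of the values given without a test, Fam189a1 in double-deficient B cell progenitors was −7.52 without the second double-deficient library and −3.48 with a prior count of 2.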
